A study of Homo sapiens with 72 samples.

Results

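The 10 human genes described here encode terminal nucleotidyltransferases, enzymes that add nucleotides to RNA 3′ ends without a template. They were taken by name, as ZCCHC11 (TUT4), ZCCHC6 (TUT7), PAPD4 (TENT2, also GLD2), PAPD5 (TENT4B), PAPD7 (TENT4A), TUT1, MTPAP, FAM46A (TENT5A), FAM46B (TENT5B) and FAM46C (TENT5C), from gene counts of poly(A)-selected RNA. All 10 were present among the 26485 genes of the count tables, and all 10 were among the 15556 genes with enough reads to be tested. The libraries came from IGROV1, an ovarian carcinoma line, and DU145, a prostate carcinoma line. The 36 mRNA libraries formed 9 groups of 4: wild-type cells, TUT4/7 mutant clone 1 and TUT4/7 mutant clone 2 in each of IGROV1, DU145 and DU145-LIN28A-OE, a DU145 derivative that carries a LIN28A transgene. IGROV1 expresses LIN28A from its own gene and DU145 does not.

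Many terminal nucleotidyltransferases lengthen poly(A) tails, which tends to protect an RNA, or add uridines, which often marks it for decay. Not all members follow this. TUT4 and TUT7 are the main cytoplasmic uridylyltransferases of mRNAs and microRNA precursors, and the RNA-binding protein LIN28A recruits them to the let-7 precursors. Each of the other members is introduced with its own role below.

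The mutants were made with a paired-guide Cas9 nickase that was directed at exon 12 of TUT4 and exon 14 of TUT7, ahead of the exon that encodes the catalytic domain. A difference between mutant and wild type in a line rests on 2 clones, and the labels name the clones of DU145-LIN28A-OE as those of DU145. In IGROV1 and in clone 2 of both DU145 backgrounds the last number of the clone name changes from replicate to replicate, so the mutant numbers of the sample titles were taken as the clones, 1 clone for each number. All values per clone rest on that reading. The LIN28A transgene was a lentiviral cDNA without introns or 3′UTR, expressed from a CMV promoter, in cells selected with puromycin. Passage numbers differed with the genotype. Those of the DU145 wild-type libraries exceeded those of the mutants (8 to 12) by at least 145. Those of IGROV1 ran from 6 to 9 in wild type and from 2 to 6 in the mutants. In DU145-LIN28A-OE they ran from 1 to 4 in all groups, below those of the DU145 clones that the labels name. The sources used here do not say where each count starts, so the numbers need not share a scale. Passage and genotype cannot be told apart in DU145, and the IGROV1 ranges share only passage 6. The replicates of a group followed each other in passage number and nothing states that they were separate cultures, so the p-values measure the spread among these libraries.

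The targeted exons are shown because the experiment turns on them. In the hg38 annotation (GENCODE), ZCCHC11 lies on the minus strand at chr1:52408282-52553487, and exon 12 of its transcript ENST00000257177.9 is 175 bases long, at chr1:52477708-52477882. ZCCHC6 lies on the minus strand at chr9:86287733-86354454, and exon 14 of ENST00000375963.8 is 151 bases long, at chr9:86322325-86322475. The exon numbers are those of these transcripts, since the transcript that the study counted along is not named. Both exons are written 5′ to 3′ on the coding strand, with no part in capitals because the guide positions are not given in the sources used here.
ZCCHC11 exon 12: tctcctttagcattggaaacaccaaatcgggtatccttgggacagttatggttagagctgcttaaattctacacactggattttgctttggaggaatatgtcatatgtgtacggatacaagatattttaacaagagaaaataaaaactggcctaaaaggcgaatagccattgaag
ZCCHC6 exon 14: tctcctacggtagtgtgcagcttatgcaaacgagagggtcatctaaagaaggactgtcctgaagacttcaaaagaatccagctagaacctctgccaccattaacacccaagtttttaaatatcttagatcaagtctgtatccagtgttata
The counts are per gene and say nothing of the sequence of these exons in the clones, nor whether the remaining transcripts can be translated. At the protein level, the study reports western blots with TUT4 and TUT7 depleted in both mutant clones of DU145 and of IGROV1.

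Between 7195437 and 25054688 reads were counted on genes in each library, and no pair of replicates agreed within sampling noise (lowest chi-square 4.03 per gene). Levels are given as CPM, the usual unit of reads scaled to library size, here with TMM factors. LIN28A, which checks the labels, was at 239, 223 and 278 CPM on average in IGROV1 wild type, clone 1 and clone 2. It was at 0.456 CPM or less in every DU145 library without the transgene, and at 70.3, 370 and 241 CPM in DU145-LIN28A-OE wild type, clone 1 and clone 2, so that the transgene level also differed between the genotypes. PAX8 (435 to 991 CPM) and SOX17 (121 to 246 CPM) marked all IGROV1 libraries, whereas WT1, KRT7 and EMX2 stayed at 1.75 CPM or less there and MUC16 reached 2.95 CPM. Of these ovarian markers, KRT7 was instead high in DU145 (1500 to 3550 CPM) and MUC16 reached at least 116 CPM in DU145-LIN28A-OE clone 2, so that the summed level of the 6 was higher in the DU145 libraries (1560 to 3590 CPM) than in IGROV1 (557 to 1190 CPM), while PAX8 stayed at 3.01 CPM or less and SOX17 at 0.902 CPM or less in DU145. The DU145 libraries carried KRT8, KRT18, EPCAM and CDH1, with KLK3 at 0.0683 CPM or less. The summed level of 4 blood and endothelial markers was at most 7.01 CPM in any library. The fourth libraries of the mutant clones without transgene stood apart from the other 3 of their group, and are called the fourth mutant libraries below. Measured as the median deviation of genes with transcripts of 5000 bases or more minus that of genes with 2000 bases or less, on the log2 scale, they deviated by -0.72 and -0.51 in IGROV1 clones 1 and 2 and by -0.38 and -0.34 in DU145 clones 1 and 2. The first DU145 wild-type library deviated by -0.43 and the first DU145-LIN28A-OE wild-type library by -0.23, and the other 30 libraries lay between -0.17 and 0.43. Of the 8 members with transcripts over 5000 bases, ZCCHC11, ZCCHC6, PAPD4, PAPD5 and MTPAP had the lowest value of their group in each of the 4 libraries, so the results for them are also given without the fourth mutant libraries. Whether these deviations come from RNA quality was not tested.

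In wild-type cells, the members were compared with each other as CPM per kilobase of transcript. In IGROV1, FAM46A, a cytoplasmic poly(A) polymerase, stood first at 42.1 ± 3.2 (SD, n = 4), above ZCCHC11 at 14.0 and TUT1 at 13, whose ranges overlapped each other. FAM46C, its paralog, stood last at 0.306, below PAPD5 at 4.0. In DU145, the order was different. TUT1 (12), PAPD5 (11.2), PAPD4 (10.9), PAPD7 (9.77) and ZCCHC11 (9.66) led, and each overlapped the next, while FAM46A at 1.75 and FAM46C at 0.813 were separate from the rest and from each other. In DU145-LIN28A-OE, PAPD4 (12.2), TUT1 (11.5), ZCCHC11 (11.4), ZCCHC6 (11.2) and PAPD5 (10.5) had overlapping ranges, and FAM46C was again last at 0.533.

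**Figure D1:**
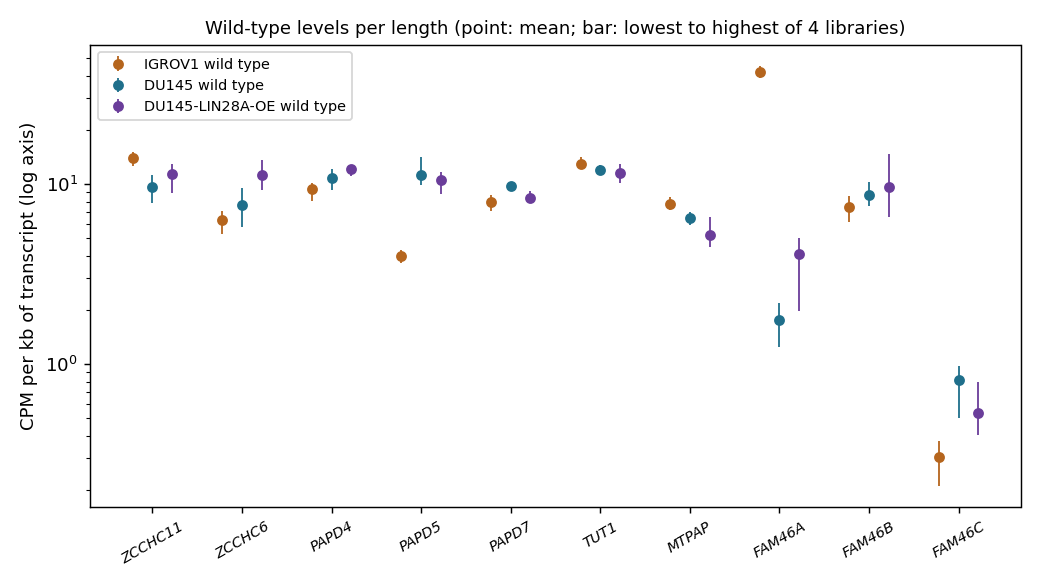
Level of each of the 10 genes in the 3 wild-type groups, as CPM per kilobase of transcript on a log axis, with points for means and bars from the lowest to the highest of 4 libraries. FAM46A is the gene farthest apart between the lines, at 42.1 in IGROV1 and 1.75 in DU145, and FAM46C is the lowest member in all 3 groups.

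Of the 10 members, 3 differed between wild-type DU145 and wild-type IGROV1 at an adjusted p under 0.01 in edgeR's quasi-likelihood test, the threshold used throughout, in a comparison where 60% of all genes did. FAM46A was measured at 222, 255, 218 and 245 CPM in IGROV1 and at 6.95, 9.41, 10.5 and 12.2 CPM in DU145, a difference of -4.59 on the log2 scale (SE 0.27, adjusted p = 1.86e-16, edgeR), or 24.1-fold lower. PAPD5, a nuclear polymerase that tails aberrant and structured RNAs for trimming or decay, was higher in DU145 by 1.49 (SE 0.19, adjusted p = 1.46e-08, edgeR). FAM46C was higher in DU145 by 1.39 (SE 0.27, adjusted p = 3.6e-05, edgeR), from a low level in both lines. None of these 3 pairs of groups overlapped. ZCCHC11 (-0.54, adjusted p = 0.0426, edgeR) and ZCCHC6 (0.27, adjusted p = 0.282, edgeR) did not pass. The ZCCHC11 ranges did not overlap either, at 46.3 to 65.4 CPM in DU145 and 73.8 to 88.2 CPM in IGROV1. Its difference passed with only these groups in the fit, without the fourth mutant libraries and with replicates 1 and 2 alone.

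ZCCHC11, the first targeted gene, was lower in the mutants of all 3 backgrounds. In IGROV1 wild type it was at 73.8, 88.2, 85.4 and 81.4 CPM in replicates 1 to 4. Clone 1 had 33.8, 35.7, 33.1 and 12.6 CPM, and clone 2 had 32.0, 32.0, 28.8 and 19.0 CPM. All 8 mutant libraries were below all 4 wild-type libraries, by 1.52 on the log2 scale (95% CI -1.93 to -1.12, adjusted p = 8.64e-08, edgeR). ZCCHC11 was at 46.3, 64.9, 65.4 and 49.4 CPM in DU145 wild type, at 15.1, 12.7, 14.6 and 5.15 CPM in clone 1, and at 41.2, 44.3, 41.6 and 25.9 CPM in clone 2. The groups did not overlap here either, although the upper values of clone 2 came close to the lowest wild-type library, and the difference was -1.39 (95% CI -1.81 to -0.98, adjusted p = 2.71e-06, edgeR). In DU145-LIN28A-OE, wild type had 52.6, 64.1, 74.3 and 75.6 CPM, clone 1 had 15.5, 17.1, 23.8 and 21.0 CPM, and clone 2 had 55.1, 55.0, 59.0 and 55.1 CPM. Clone 1 was far below wild type. Clone 2 lay within the wild-type range only through the first wild-type library (52.6 CPM), and below the other wild-type libraries. The difference over both clones of -1.02 (95% CI -1.42 to -0.61, adjusted p = 0.000177, edgeR) came mainly from clone 1.

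ZCCHC6, the second targeted gene, was also lower in the mutants of all 3 backgrounds, and no mutant library reached the wild-type range of its background. IGROV1 wild type had 29.5, 40.0, 39.4 and 33.6 CPM, against 21.0, 24.2, 22.3 and 10.3 CPM in clone 1 and 14.9, 14.9, 12.6 and 9.56 CPM in clone 2. The difference was -1.15 (95% CI -1.54 to -0.76, adjusted p = 6.78e-06, edgeR). DU145 wild type had 32.2, 53.4, 44.6 and 41.9 CPM, against 20.8, 11.6, 15.96 and 7.73 CPM in clone 1 and 23.6, 24.9, 24.9 and 14.1 CPM in clone 2. Here the difference was -1.29 (95% CI -1.68 to -0.90, adjusted p = 4.06e-06, edgeR). In DU145-LIN28A-OE, wild type had 52.1, 76.2, 60.0 and 63.1 CPM, clone 1 had 21.4, 20.1, 26.8 and 22.2 CPM, and clone 2 had 31.4, 38.4, 27.2 and 35.8 CPM, which gave -1.20 (95% CI -1.58 to -0.82, adjusted p = 6.87e-06, edgeR). Without the fourth mutant libraries, the ZCCHC11 differences were -1.32, -1.21 and -1.01 and the ZCCHC6 differences -0.98, -1.12 and -1.19 in the same order of backgrounds, with all 6 past the threshold in edgeR's test. A loss of transcripts from the edited alleles and a lower output of all alleles cannot be told apart in counts per gene.

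**Figure D2:**
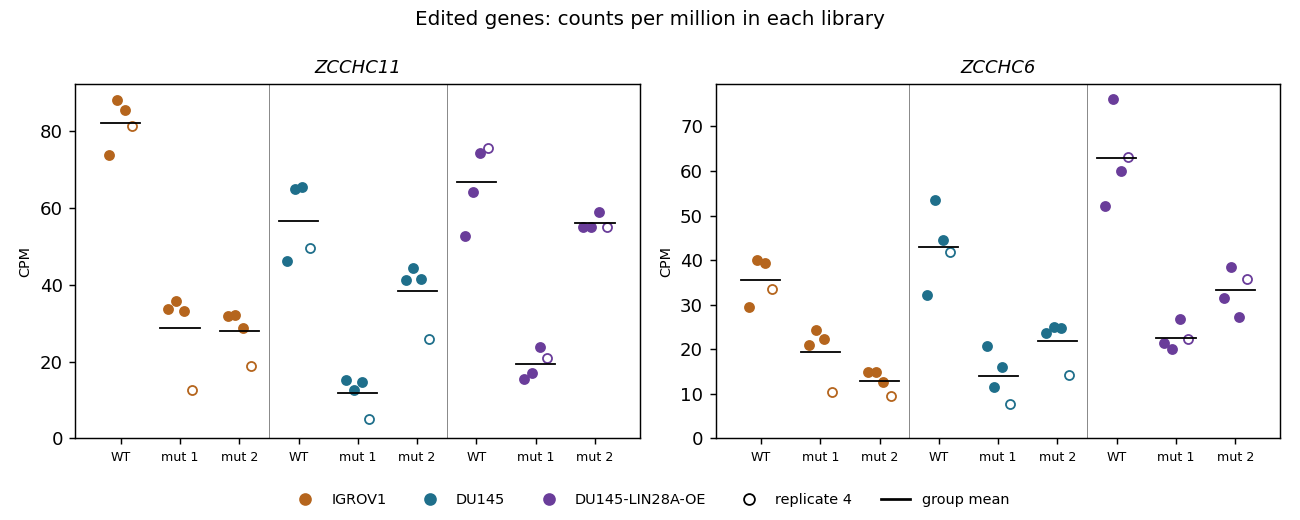
CPM of ZCCHC11 and ZCCHC6 in each of the 36 libraries, by group, with the fourth replicate marked apart and a line at each group mean. ZCCHC11 in DU145-LIN28A-OE clone 2 (55.0 to 59.0 CPM) lies above only the first library of its wild type (52.6 CPM). ZCCHC6 is below wild type in all 24 mutant libraries.

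The clones were not alike. Against their own wild type, ZCCHC11 was lower by 1.5 in IGROV1 clone 1 and by 1.55 in clone 2, by 2.22 in DU145 clone 1 and by 1.78 in DU145-LIN28A-OE clone 1, all past the threshold. It did not pass in DU145 clone 2 (-0.56, adjusted p = 0.0708, edgeR) nor in DU145-LIN28A-OE clone 2 (-0.25, adjusted p = 0.465, edgeR), although without the fourth mutant libraries the DU145 clone 2 difference of -0.42 passed (adjusted p = 0.00927, edgeR). The contrast of clone 2 with clone 1 was 1.66 in DU145 (SE 0.25, adjusted p = 2.48e-06, edgeR) and 1.53 in DU145-LIN28A-OE (SE 0.24, adjusted p = 3.65e-06, edgeR), and -0.06 in IGROV1 (95% CI -0.54 to 0.43). ZCCHC6 was lower in each of the 6 mutant groups, with adjusted p of 0.00284 or less in edgeR's test. It was lower by 0.85 and 1.45 in IGROV1, by 1.60 and 0.97 in DU145 and by 1.47 and 0.92 in DU145-LIN28A-OE. By the labels, the DU145-LIN28A-OE clones are those of DU145, so they are not further clones. The ZCCHC6 call was lost in IGROV1 clone 1 without the fourth library of that clone, without the second wild-type library or with only the groups compared in the fit, and in DU145-LIN28A-OE clone 2 without the second wild-type library or without TMM scaling. Among all 10 members, clones 1 and 2 passed against wild type in 5 and 4 genes in IGROV1, where 31.1% and 30.1% of all genes passed. The counts were 4 and 2 in DU145 (background 21.8% and 20.5%) and 3 and 1 in DU145-LIN28A-OE (background 25.2% and 20.6%). Between the clones themselves, 2 members differed in IGROV1 (background 18.8%), 2 in DU145 (background 31.1%) and 1 in DU145-LIN28A-OE (background 37.6%).

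**Figure D3:**
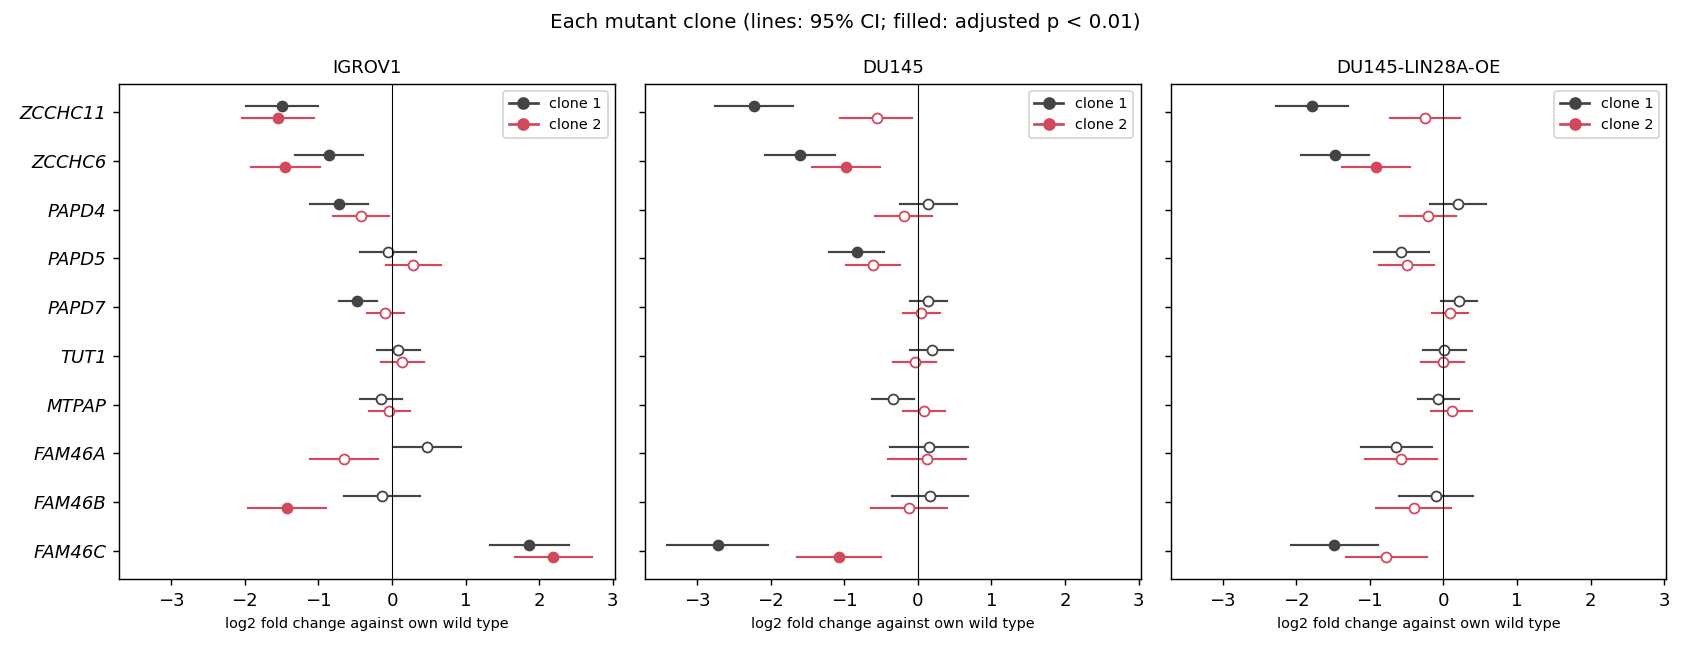
Log2 fold change of each gene in each mutant clone against its own wild type, with lines for the 95% confidence interval and filled points for an adjusted p under 0.01. ZCCHC6 is filled in all 6 mutant groups and ZCCHC11 in 4 of 6. FAM46C lies to the right of 0 in both IGROV1 clones and to the left in both clones of each DU145 background.

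Over both clones of IGROV1, 5 of the 10 members passed, 4 lower and 1 higher, where 33.2% of all genes passed. In DU145 4 members passed, all lower, where 18.1% of all genes did, and in DU145-LIN28A-OE 4 passed, again all lower, where 17.9% of all genes did. The medians over the 10 members were -0.19, -0.07 and -0.39, and the median over all genes was 0 in each. The targeted genes account for 2 of the members in each count. The wild-type and mutant IGROV1 libraries also differed in epithelial markers that served to check identity. KRT8 was at 177 to 242 CPM in wild type and at 0.924 to 6.62 CPM in the mutants, and EPCAM was at 74.0 to 89.7 CPM in wild type and at 0.491 CPM or less in the mutants. KRT18 was at 205 to 267 CPM in wild type, at 209 to 467 CPM in clone 1 and at 27.2 to 48.8 CPM in clone 2. The summed level of the 8 epithelial and prostate markers was 474 to 597 CPM in IGROV1 wild type, 217 to 480 CPM in clone 1 and 33.1 to 56.0 CPM in clone 2. In DU145 clone 1 EPCAM was at 8.73 to 13.1 CPM, against 47.4 to 65.9 CPM in wild type and 43.6 to 61.1 CPM in clone 2. The part of these marker differences in the results for the members was not tested, nor was whether the wild-type and mutant IGROV1 cells share a recent origin. In bulk libraries, fewer cells of a kind and less RNA per cell cannot be told apart.

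**Figure D4:**
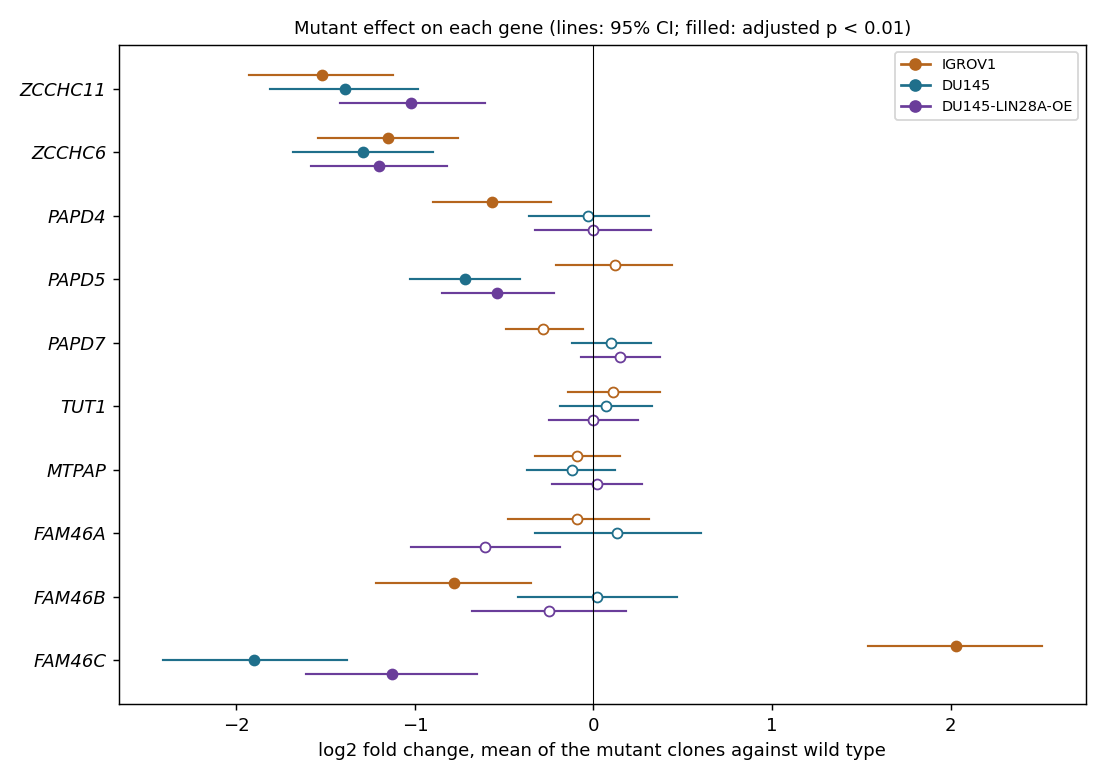
Log2 fold change of the mutants against wild type for the 10 genes in IGROV1, DU145 and DU145-LIN28A-OE, with lines for the 95% confidence interval and filled points for an adjusted p under 0.01. ZCCHC11 and ZCCHC6 are filled and left of 0 in all 3 backgrounds, while FAM46C is at 2.03 in IGROV1 and at -1.90 and -1.13 in the DU145 backgrounds.

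FAM46C, a poly(A) polymerase best known from plasma cells and myeloma, moved in opposite directions in the 2 lines. IGROV1 wild type had 1.58, 2.11, 1.19 and 2.04 CPM, clone 1 had 6.13, 7.37, 5.59 and 6.16 CPM, and clone 2 had 8.52, 6.80, 6.54 and 10.1 CPM. Every mutant library exceeded every wild-type library, by 2.03 on the log2 scale (95% CI 1.54 to 2.51, adjusted p = 1.31e-08, edgeR), or 4.08-fold. DU145 wild type had 4.85, 5.21, 2.83 and 5.49 CPM, clone 1 had 0.810, 0.627, 0.702 and 0.572 CPM, and clone 2 had 2.05, 2.78, 2.14 and 1.74 CPM. The mutants were lower by 1.90 (95% CI -2.41 to -1.38, adjusted p = 6.85e-07, edgeR) and the groups did not overlap, although the highest library of clone 2 reached almost the lowest of wild type. The clones differed, with clone 2 higher than clone 1 by 1.64 (SE 0.36, adjusted p = 0.000357, edgeR). Clone 2 was lower than wild type by 1.07 (adjusted p = 0.00329, edgeR), a call that was lost without the second or the fourth wild-type library or without the fourth library of that clone. In DU145-LIN28A-OE, wild type had 2.34, 4.51, 2.30 and 2.91 CPM, clone 1 had 0.589, 0.928, 1.63 and 1.17 CPM, and clone 2 had 1.52, 2.87, 1.09 and 1.47 CPM. The difference was -1.13 (95% CI -1.61 to -0.65, adjusted p = 0.000417, edgeR), clone 2 overlapped wild type, and the call was lost without the second wild-type library (-0.85) or with only these groups in the fit (adjusted p = 0.0102, edgeR). The mutant effect in IGROV1 minus that in DU145 was 3.92 (95% CI 3.22 to 4.63, adjusted p = 5.12e-11, edgeR), in a test that 24.2% of all genes and 2 of the 10 members passed.

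PAPD5 was the other member whose mutant effect differed between the lines. In DU145 it was at 83.1, 92.4, 119 and 84.9 CPM in wild type, at 56.5, 51.6, 62.8 and 41.8 CPM in clone 1, and at 67.9, 67.3, 67.2 and 46.4 CPM in clone 2. All 8 mutant libraries were below wild type, by 0.72 on the log2 scale (95% CI -1.03 to -0.41, adjusted p = 0.000582, edgeR). In DU145-LIN28A-OE it was at 74.9, 98.7, 88.3 and 93.2 CPM in wild type, at 57.9, 56.2, 64.8 and 59.5 CPM in clone 1, and at 62.1, 79.4, 53.3 and 56.5 CPM in clone 2. The groups overlapped and the difference of -0.54 (95% CI -0.85 to -0.22, adjusted p = 0.00841, edgeR) passed in only 3 of the 12 fits that left out a single library and not without TMM scaling (-0.44). In IGROV1 wild type PAPD5 was at 30.8 to 36.6 CPM, and the mutant difference of 0.12 (95% CI -0.21 to 0.44) did not pass. Without the fourth mutant libraries, the differences were 0.30, -0.62 and -0.53 in IGROV1, DU145 and DU145-LIN28A-OE, with the same calls. In IGROV1 clone 2, PAPD5 was at 0.29 from wild type (adjusted p = 0.215, edgeR), and without these libraries it was higher by 0.46 and passed (adjusted p = 0.00258, edgeR). The effect in IGROV1 minus that in DU145 was 0.84 (95% CI 0.38 to 1.29, adjusted p = 0.00364, edgeR), and this call was lost without the third DU145 wild-type library, without the first IGROV1 wild-type library, without TMM scaling (0.77), with only the groups compared in the fit (adjusted p = 0.0103, edgeR) and with replicates 3 and 4 alone (0.70, adjusted p = 0.15, edgeR). It was 0.91 without the fourth mutant libraries. PAPD7, the paralog of PAPD5 and likewise a nuclear polymerase, passed in none of the 3 mutant comparisons (-0.28 in IGROV1, 0.10 in DU145 and 0.15 in DU145-LIN28A-OE). It passed in IGROV1 clone 1 (-0.47, adjusted p = 0.00271, edgeR), a call that held in 4 of the 8 fits that left out a library and in neither the fit without the fourth mutant libraries nor that of only these groups, and in IGROV1 clone 2 it was at -0.09, with the clones at 0.37 from each other (adjusted p = 0.0219, edgeR).

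PAPD4, a cytoplasmic poly(A) polymerase that also adds single adenosines to microRNAs, was lower in the IGROV1 mutants. Wild type had 41.1, 48.2, 51.3 and 50.9 CPM, clone 1 had 31.0, 38.2, 32.1 and 13.4 CPM, and clone 2 had 41.1, 39.4, 39.2 and 23.3 CPM. The lowest wild-type library and the highest library of clone 2 were almost equal, and the difference was -0.57 (95% CI -0.90 to -0.24, adjusted p = 0.00405, edgeR). It was -0.37 without the fourth mutant libraries, still past the threshold, and the call was lost in the fits without the second, the third or the fourth wild-type library and in the fit of only these groups (adjusted p = 0.0501, edgeR). Of the clones, clone 1 passed (-0.72, adjusted p = 0.00255, edgeR), though not without the fourth library nor with only its own groups in the fit, and clone 2 did not (-0.42, adjusted p = 0.0746, edgeR). PAPD4 did not pass in DU145 (-0.03, 95% CI -0.36 to 0.31) nor in DU145-LIN28A-OE (0.00, 95% CI -0.33 to 0.32), and the difference between the IGROV1 and DU145 effects of -0.54 passed only without the fourth mutant libraries (adjusted p = 0.0669 with them, edgeR). The study, which calls this gene TUT2, reports no significant change of its RNA in the mutants. The IGROV1 call differs from that report.

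FAM46A and FAM46B differed between the IGROV1 clones. FAM46A was at 388, 328, 393 and 193 CPM in clone 1 and at 134, 159.05, 164 and 143 CPM in clone 2, against 218 to 255 CPM in wild type. The first 3 libraries of clone 1 were above wild type and the fourth was below, as were all 4 of clone 2. Clone 2 was below clone 1 by 1.12 (SE 0.23, adjusted p = 0.000263, edgeR), while neither clone passed against wild type (0.47, adjusted p = 0.0932, and -0.65, adjusted p = 0.0215, edgeR) and the mean of both was -0.09 from it. Without the fourth mutant libraries clone 1 passed (0.66, adjusted p = 0.00742, edgeR), and clone 2 passed with only the groups compared in the fit (-0.64, adjusted p = 0.000333, edgeR). FAM46B, another poly(A) polymerase of this family, was at 14.6, 20.4, 18.2 and 18.1 CPM in IGROV1 wild type, at 12.3, 13.1, 15.4 and 25.4 CPM in clone 1, and at 5.08, 6.45, 5.53 and 9.56 CPM in clone 2. All of clone 2 was below wild type and clone 1 spanned it, so the difference over both clones of -0.78 (95% CI -1.22 to -0.35, adjusted p = 0.00328, edgeR) was that of clone 2 (-1.43, adjusted p = 3.33e-05, edgeR) and not of clone 1 (-0.14, or -0.38 without the fourth library, which did not pass either). The call over both clones was lost without the second or without the third wild-type library. Clone 2 was below clone 1 by 1.29 (SE 0.26, adjusted p = 0.000265, edgeR), a call that was just lost with only these 2 groups in the fit (adjusted p = 0.0102, edgeR). In DU145 and DU145-LIN28A-OE, FAM46B did not pass (0.02 and -0.25), nor did FAM46A (0.13 and -0.61, adjusted p of 0.704 and 0.024, edgeR). The FAM46A difference in DU145-LIN28A-OE became -0.84 and passed without the first wild-type library, whose value is given with the transgene below, and also passed without the fourth mutant libraries (-0.60, adjusted p = 0.00719, edgeR).

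**Figure D5:**
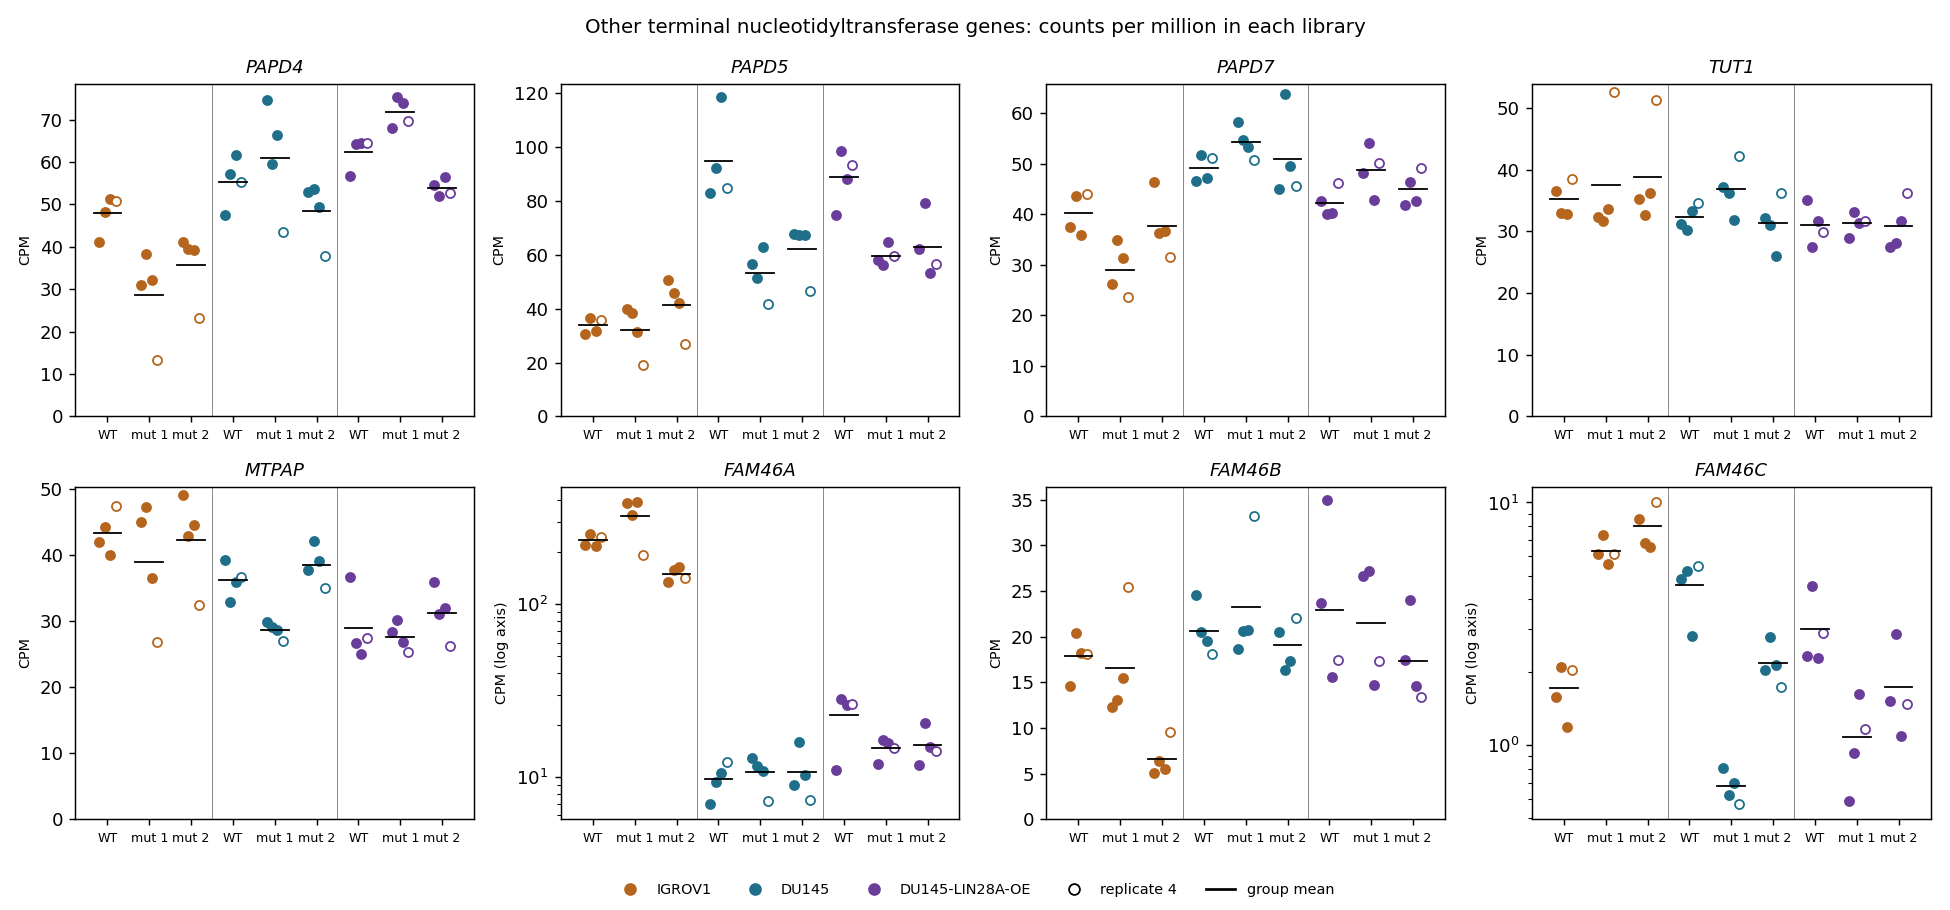
CPM of the 8 members that were not targeted in each of the 36 libraries, by group, with FAM46A and FAM46C on log axes. TUT1 stays between 26.0 and 52.6 CPM over all libraries, while FAM46C is at 5.59 CPM or more in the 8 IGROV1 mutant libraries. DU145 wild type comes next, with FAM46C at up to 5.49 CPM.

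TUT1, which uridylates the U6 small nuclear RNA, and MTPAP, the mitochondrial poly(A) polymerase, passed in none of the 3 mutant comparisons. TUT1 was at 0.11, 0.07 and 0.00 in IGROV1, DU145 and DU145-LIN28A-OE, with intervals that reached at most 0.37 from 0. MTPAP was at -0.09, -0.12 and 0.02, with intervals that reached at most 0.37 from 0 as well, and without the fourth mutant libraries at 0.04, -0.09 and 0.02, again not passing. In DU145, MTPAP was at 32.8 to 39.2 CPM in wild type, 27.0 to 29.9 in clone 1 and 35.0 to 42.1 in clone 2. Clone 2 was at 0.42 from clone 1 (adjusted p = 0.0151, edgeR). That contrast passed in DESeq2, with a replicate block, without TMM scaling, with only these groups and without the fourth mutant libraries. An exon of TUT1 overlaps another protein-coding gene on the same strand and an lncRNA on the opposite one, and exons of MTPAP overlap a pseudogene and a microRNA gene on the same strand and an lncRNA on the opposite one, so that reads of these genes are uncertain. TUT1 had its highest IGROV1 values, 52.6 and 51.4 CPM, in the fourth libraries of the mutants, and its transcript of 2705 bases is shorter than those of all other members except FAM46B.

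In wild-type DU145, the LIN28A transgene went with a higher level of 1 member, FAM46A, where 9.21% of all genes passed. FAM46A was at 6.95, 9.41, 10.5 and 12.2 CPM without the transgene and at 11.02, 28.2, 26.1 and 26.5 CPM with it, so that the first transgenic library fell within the range of the cells without it. The difference was 1.23 (95% CI 0.72 to 1.74, adjusted p = 0.000709, edgeR), and 1.47 without that library, but it did not pass with only these groups in the fit (1.19, adjusted p = 0.0363, edgeR). ZCCHC11 was at 0.24 (adjusted p = 0.52, edgeR), ZCCHC6 at 0.55 (adjusted p = 0.0843, edgeR) and FAM46C at -0.59 (adjusted p = 0.113, edgeR). Of these, ZCCHC6 passed without the fourth mutant libraries (adjusted p = 0.00989, edgeR), although these libraries are in neither wild-type group. In the mutants, ZCCHC11 and ZCCHC6 were higher with the transgene, by 0.61 (95% CI 0.26 to 0.97, adjusted p = 0.00594, edgeR) and 0.64 (95% CI 0.31 to 0.97, adjusted p = 0.0028, edgeR), where 23.6% of all genes passed. Without the fourth mutant libraries these differences were 0.39 and 0.43 and still passed. The ZCCHC11 call passed in 10 of the 16 fits that each left out a library, and failed without the third or the fourth library of either transgenic clone or the fourth of either clone without transgene. Among these fits, the ZCCHC6 call failed only without the fourth library of clone 2 without transgene. Both calls were lost with replicates 1 and 2 alone and with replicates 3 and 4 alone. FAM46A in the mutants was at 0.49 (adjusted p = 0.0279, edgeR). The mutant effect with the transgene minus that without it passed for none of the 10 members, where 0.489% of all genes passed. For ZCCHC11 this difference was 0.38 (95% CI -0.22 to 0.97), for ZCCHC6 0.09 (95% CI -0.47 to 0.65), for FAM46A -0.74 (95% CI -1.36 to -0.12) and for FAM46C 0.77 (95% CI 0.05 to 1.49). At an unadjusted p under 0.05 in edgeR's test the last 2 of these genes passed, and DESeq2 called 0 of the 10 members as well. The transgene also went with other passage numbers and with a selection, which cannot be told apart from it.

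Other genes of the tailing pathway were listed by role. Of 5 other 3′ nucleotidyltransferases, 3 had enough reads. PAPOLA, the canonical nuclear poly(A) polymerase, was lower in the mutants of IGROV1 (-0.81, adjusted p = 4.13e-06, edgeR) and of DU145 (-0.55, adjusted p = 0.00174, edgeR) and was at -0.44 in DU145-LIN28A-OE (adjusted p = 0.0115, edgeR). In IGROV1, PAPOLG, a related nuclear polymerase, was lower (-0.68, with -0.92 in clone 1, which passed, and -0.44 in clone 2, which did not) and TRNT1, which adds CCA to tRNAs, was higher (0.83) and passed in both clones. Of 15 partners and recruiting proteins, of which 14 were tested, 3 were higher and 2 lower in the IGROV1 mutants, where 33.2% of all genes were called. In DU145 0 were higher and 4 lower, and in DU145-LIN28A-OE 1 and 4, where 18.1% and 17.9% of all genes were called. CPEB2 and CPEB4, which bind mRNAs to control their tails, differed mainly in 1 clone of IGROV1. CPEB2 was at 6.93 to 10.7 CPM in wild type, at 3.23 to 13.1 CPM in clone 1 and at 0.159 CPM or less in clone 2. CPEB4 was at 16.2 to 23.1 CPM in wild type, at 21.9 to 30.2 CPM in clone 1 and at 59.8 to 73.1 CPM in clone 2, and clone 1 passed for neither gene. SAMD4A, which binds mRNA hairpins, was lower over the clones of all 3 backgrounds (-1.97, -0.74 and -0.62), though DU145-LIN28A-OE clone 1 (-0.23) and DU145 clone 1 (-0.65) did not pass by themselves. Of 12 exonucleases of tailed RNA, 0 were higher and 1 lower in IGROV1, 1 and 2 in DU145, and 2 and 3 in DU145-LIN28A-OE, against the same shares of all genes. CNOT7, a deadenylase (-0.87 and -0.86), ERI1, an exonuclease of histone mRNA ends (-1.21 and -1.03), and USB1, which trims U6 (1.02 and 0.90), were called in both DU145 backgrounds. The clones were unequal here too. In clone 2, CNOT7 was at -1.35 and -1.33 and ERI1 at -2.03 and -1.95 in DU145 and DU145-LIN28A-OE, whereas in clone 1 CNOT7 was at -0.38 and -0.39 and ERI1 at -0.38 and -0.11, none of which passed. USB1 passed in each of these clones except DU145-LIN28A-OE clone 2 (0.57, adjusted p = 0.0107, edgeR).

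Over the 36 libraries, with the mean of each background removed, ZCCHC11 and ZCCHC6 varied together (Pearson r = 0.898 on the log2 scale). The difference between wild type and mutants was left in. Both genes were targeted in the same mutants, so a high r follows from the design. The genes whose pattern was most like that of ZCCHC11 by Pearson's r were ZMYM2 (r = 0.944), XPR1 (r = 0.938) and RDH11 (r = 0.933), and those most like ZCCHC6 were OCLN (r = 0.928), LMO7 (r = 0.924) and SWAP70 (r = 0.907), out of 15556. By Spearman's rho, BTC, SCEL and ZMYM2 were the most like ZCCHC11, and OCLN, SORT1 and LAMTOR3 the most like ZCCHC6. These are descriptions over libraries that share genotypes, clones, passages and the deviation of the fourth libraries. PAPD5 followed ZCCHC6 with r = 0.684 and ZCCHC11 with r = 0.625, and TUT1 ran against both, with r of -0.499 and -0.512.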

How the data were processed

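The authors trimmed reads with Trimmomatic 0.39, removed ribosomal reads, aligned with HISAT2 2.1.0 to hg38 and counted with HTSeq, per the submitters' notes and methods. The deposited values are raw read counts per gene, 1 table per library. The strand setting and annotation of the counting are not given in the sources used here. Rows that name no gene (no feature 8.32% to 14.8%, ambiguous 1.77% to 2.2% of reads) were left out. The 36 small RNA libraries were not used here. The counts were fitted in edgeR 4.0.16 (R 4.3.3) with TMM scaling, filterByExpr, 9 group means, the quasi-likelihood test and Benjamini-Hochberg adjustment over 15556 genes, for 11 comparisons and 6 of single clones with wild type, at an adjusted p under 0.01. Differences are on the log2 scale. The fit was also run on simulated counts, drawn independently for each library. They held no clone differences, serial passages or deviating libraries, so they cannot check the p-values for these. DESeq2 1.42.0 and other settings were alternatives. Coordinates, exons and transcript lengths came from a GENCODE annotation of hg38. The genes named were the 10 members, 3 lists of related genes and the genes most like the targeted pair. The members and lists were chosen with earlier results of these data known. Depth was 7195437 to 25054688 reads. Some of the cell type markers are not reported here.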

Additional observations from a re-analysis of the deposited data

Results flagged for a closer look

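In 10 of 90 sets of 4 libraries, 1 library lay farther from the rest than Dixon's 95% criterion allows. Chance gives about 1 in 20 for independent sets of normal values. These sets share libraries and hold untransformed CPM, so that rate is not a measure of chance here. In 7 of the 10, the library was the fourth of a mutant clone without transgene. These 7 were ZCCHC11 in DU145 clone 2 (25.88 CPM) and IGROV1 clone 1 (12.62 CPM), ZCCHC6 in DU145 clone 2 (14.13 CPM), PAPD4 in IGROV1 clone 2 (23.28 CPM), PAPD5 in DU145 clone 2 (46.44 CPM), TUT1 in IGROV1 clone 1 (52.64 CPM) and FAM46B in DU145 clone 1 (33.2 CPM). The fourth library was the lowest of its group for the first 5 of these and the highest for TUT1 and FAM46B. The others were PAPD4 (56.59 CPM) and FAM46A (11.02 CPM) in the first DU145-LIN28A-OE wild-type library, both the lowest of their group, and ZCCHC11 in the third library of DU145-LIN28A-OE clone 2 (58.99 CPM, against 54.98 to 55.09 CPM in the other 3).

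Effects that differed between groups by edgeR's test were those of clone 2 against clone 1 for FAM46A (-1.12) and FAM46B (-1.29) in IGROV1, for ZCCHC11 (1.66) and FAM46C (1.64) in DU145 and for ZCCHC11 (1.53) in DU145-LIN28A-OE, and the mutant effect in IGROV1 minus that in DU145 for PAPD5 (0.84) and FAM46C (3.92).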

How the results depend on the processing

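Of 45 calls among 170 pairs of member and comparison, 37 held with RLE size factors, no filter on low counts, an adjusted p under 0.05, DESeq2, a replicate block and fits of only the groups compared, and 33 with each library left out in turn. A member's difference took the opposite sign in 133 of 3750 alternative values, 0 of them called in either fit and none above 0.34 in size. For the differences printed here, these were, without the fourth mutant libraries, TUT1 (-0.06), MTPAP (0.04) and FAM46A (0.03) in IGROV1, PAPD4 (0.08), TUT1 (-0.01) and FAM46B (-0.13) in DU145, and ZCCHC6 (-0.08) for the effect with the transgene minus that without. With replicates 1 and 2 alone they were TUT1 (-0.07) and MTPAP (0.10) in IGROV1, PAPD7 (0.03) in IGROV1 clone 2 and PAPD4 (0.19) and FAM46B (-0.24) in DU145. They were also MTPAP (-0.02) in DU145-LIN28A-OE and ZCCHC6 (-0.15) for the mutant effect with the transgene minus that without. With replicates 3 and 4 alone they were PAPD5 (-0.19) in IGROV1, FAM46A (-0.32) in DU145, FAM46B (0.17) in IGROV1 clone 1 and ZCCHC11 (0.08) for IGROV1 clone 2 against clone 1. Without TMM scaling they were PAPD4 (0.04) in DU145 and that ZCCHC11 contrast (0.02). With 1 library left out, ranges crossing 0 were -0.09 to 0.04 for PAPD4 and -0.08 to 0.11 for FAM46B in DU145. They were -0.14 to 0.03 for FAM46A in IGROV1, and -0.04 to 0.16 for MTPAP and -0.40 to 0.03 for FAM46B in DU145-LIN28A-OE. Between the IGROV1 clones the range was -0.27 to 0.09 for ZCCHC11. For the ZCCHC6 mutant effect with the transgene minus that without, it was -0.02 to 0.21. The fits without TMM scaling, without the fourth mutant libraries, without the first DU145-LIN28A-OE wild-type library and with 2 replicates alone were chosen after seeing the data.

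Counts over all genes moved by over 1.5 times as follows. At an adjusted p under 0.05, 4453 genes passed for the DU145 mutants, 4274 for the DU145-LIN28A-OE mutants, 2885 for the transgene in wild type, 6012 for the transgene in mutants and 223 for the difference between mutant effects with and without transgene. That last count was 171 in DESeq2, 169 without the fourth mutant libraries, 194 without the first DU145-LIN28A-OE wild-type library, and 28 to 194 over single libraries left out, against 76. The transgene in wild type gave 201 with only its own groups fitted, 2307 without the fourth mutant libraries, 3128 without the first DU145-LIN28A-OE wild-type library, and 849 to 3128 over single libraries left out, against 1433. IGROV1 clone 2 against clone 1 gave 1428 with only its own groups. With replicates 1 and 2 alone, mutants against wild type gave 3031, 1143 and 1205 in IGROV1, DU145 and DU145-LIN28A-OE, the transgene 148 in wild type and 348 in mutants, the clones 1637 in IGROV1 and 2745 in DU145, and the differences of effects 1922 between lines and 10 with the transgene. With replicates 3 and 4 alone the mutants gave 3208, 805 and 1104, the clones 962, 2039 and 2573, and the differences 1611 and 0, and members were called 11 times in single clones, against 19. These alternatives rest on 2 libraries a group.

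With only the groups compared in the fit, 8 of the 45 calls were lost: PAPD4 in IGROV1 (adjusted p = 0.0501), FAM46C in DU145-LIN28A-OE (0.0102), FAM46A with the transgene in wild type (0.0363), FAM46B between the IGROV1 clones (0.0102), PAPD5 between the lines (0.0103), and ZCCHC6 (0.015), PAPD4 (0.0479) and PAPD7 (0.0313) in IGROV1 clone 1, all by edgeR's test. Replicates 1 and 2 alone lost 14 calls and replicates 3 and 4 alone 22, among them those of ZCCHC11 and ZCCHC6 in DU145-LIN28A-OE for the latter and those of PAPD5 in DU145 and FAM46A with the transgene for both. No TMM scaling lost 3 and the fit without the fourth mutant libraries 2. The replicate numbers did not pair the libraries over all groups: 2 of 36 pairs of groups had every correlation of same-numbered deviations over 0.1 (range -0.28 to 0.744). Most of these pairs cross backgrounds. Between clones 1 and 2 the correlations were 0.284, 0.507, 0.099 and 0.744 in IGROV1 and 0.209, 0.116, 0.263 and 0.533 in DU145. In DU145-LIN28A-OE they were 0.336, -0.119, 0.09 and 0.18. Whether same-numbered libraries of a background were handled together was not tested. A fit with the replicate number as a block gave 5574, 3178 and 3049 genes for the mutants of IGROV1, DU145 and DU145-LIN28A-OE, moved no count by 1.5 times and lost 0 member calls. It added FAM46A in IGROV1 clone 2 (-0.66), PAPD5 in DU145 clone 2 (-0.62) and DU145-LIN28A-OE clone 1 (-0.57), and MTPAP between the DU145 clones, among the values printed. Depth limits FAM46C most, which is near 1 CPM in several groups.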
